A study of Rattus norvegicus with 8 samples.

Results

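The proteasome genes are those for the subunits of the proteasome, the large protease that degrades proteins marked with ubiquitin, together with its ATPases, lid, activators and inhibitor. They were chosen by gene symbol from a list of 42 genes, and a probe belonged to the set where its accession matched one of these symbols through RefSeq. Of 30367 probes on the array, 44 matched, for 41 of the 42 genes. No probe matched Psmd11, which was not analysed here. All 41 genes passed the filter on dim probes, each with its probe well above background in the liver channel on all 8 arrays, so none entered the set through 1 group alone. They were 41 of the 15200 genes and unnamed features tested.

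The liver RNA came from adult male Sprague-Dawley rats that had eaten a control diet or a diet containing 50 mg/kg of potassium perfluorooctanesulfonate (PFOS), a persistent fluorinated surfactant, ad libitum for 28 days. Each group held 4 rats and each rat had its own array. The liver RNA carried Cy5, and a pooled universal rat reference carried Cy3 on all 8 arrays, so that a value is a log2 ratio of liver over reference. No genotype or transgene differed between the groups, and the samples were whole liver rather than isolated cells, so fewer cells of a type and less RNA per cell cannot be told apart.

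The proteasome has a barrel-shaped core of alpha and beta rings, whose beta subunits Psmb5, Psmb6 and Psmb7 carry the cutting sites. In cells exposed to interferon these sites are replaced by Psmb8, Psmb9 and Psmb10, which form the immunoproteasome and alter the peptides offered to the immune system. A regulatory particle caps the core: its Psmc ATPases unfold the substrate and thread it in, and its Psmd subunits bind ubiquitin chains and remove them. Cells that lack proteasome capacity raise the genes of the subunits together through the transcription factor Nfe2l1, which binds antioxidant response elements in their promoters. In liver the proteasome turns over short-lived enzymes and regulators and misfolded proteins exported from the endoplasmic reticulum.

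To show where the antioxidant response element core lies in these genes, the 250 bases before the start of each gene were read from the RefSeq promoter table of the GRCr8 build. Of the 42 genes 38 matched an entry, and Psma7, Psmd6, Psmd12 and Psmd14 were not among them. The core was searched on both strands as TGACNNNGC. It was present in 7 of 38 (18.4%), against 10.2% of 27456 promoters of the same length and 12.6% of the 7925 that belonged to tested genes. The 7 genes were Psma3, Psmb2, Psmb5, Psmb6, Psmd1, Psmd9 and Psme4. The CCAAT box, searched as CCAAT on both strands, was present in 19 of 38 (50%), against 34.3% of all promoters and 36.6% of those of tested genes. The gamma-activated site TTCNNNGAA is a palindrome bound by factors of the interferon pathway. It was present in 4 of 38 (10.5%), those of Psmb8, Psmc6, Psmd3 and Psmd7. The share was 7.52% of all promoters and 6.46% of those of tested genes. The GC box, searched as GGGCGG on both strands, was present in 25 of 38 (65.8%). It was present in 32.4% of all promoters and 56.5% of those of tested genes. Overlaps between matches of different motifs were not counted. A match is a description of the letters and not a site of binding.

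The first promoter shown is that of Psmc2, the 1 member that passed the test below, and it held neither core. Those of Psmd1, Psmb6 and Psmb5 show the antioxidant response element core in capitals. That of Psmb8, the member with the lowest log2 change, shows its gamma-activated site in capitals. All run 5′ to 3′ on the strand of the gene. Psmc2 lies on the minus strand at chr4:14162391-14162640, Psmd1 on the plus strand at chr9:94157721-94157970, Psmb6 on the plus strand at chr10:55737638-55737887, Psmb5 on the minus strand at chr15:32047380-32047629 and Psmb8 on the minus strand at chr20:4657032-4657281.
Psmc2: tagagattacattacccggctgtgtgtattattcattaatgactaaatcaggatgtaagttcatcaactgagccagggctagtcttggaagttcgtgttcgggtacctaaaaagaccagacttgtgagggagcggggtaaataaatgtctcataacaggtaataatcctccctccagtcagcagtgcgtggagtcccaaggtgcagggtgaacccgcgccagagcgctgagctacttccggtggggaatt
Psmd1: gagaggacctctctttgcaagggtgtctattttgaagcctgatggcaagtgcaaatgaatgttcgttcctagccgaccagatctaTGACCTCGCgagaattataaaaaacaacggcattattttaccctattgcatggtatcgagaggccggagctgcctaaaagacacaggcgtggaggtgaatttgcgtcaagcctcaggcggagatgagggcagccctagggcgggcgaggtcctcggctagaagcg
Psmb6: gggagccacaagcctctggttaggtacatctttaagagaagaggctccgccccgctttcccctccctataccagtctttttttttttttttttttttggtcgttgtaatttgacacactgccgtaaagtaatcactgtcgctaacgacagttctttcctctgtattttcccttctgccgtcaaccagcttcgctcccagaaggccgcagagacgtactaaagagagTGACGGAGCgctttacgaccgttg
Psmb5: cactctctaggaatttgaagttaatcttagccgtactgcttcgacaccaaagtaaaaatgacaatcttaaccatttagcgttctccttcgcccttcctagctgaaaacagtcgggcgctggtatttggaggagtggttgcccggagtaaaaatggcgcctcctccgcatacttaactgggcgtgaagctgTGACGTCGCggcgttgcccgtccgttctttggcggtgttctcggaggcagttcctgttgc
Psmb8: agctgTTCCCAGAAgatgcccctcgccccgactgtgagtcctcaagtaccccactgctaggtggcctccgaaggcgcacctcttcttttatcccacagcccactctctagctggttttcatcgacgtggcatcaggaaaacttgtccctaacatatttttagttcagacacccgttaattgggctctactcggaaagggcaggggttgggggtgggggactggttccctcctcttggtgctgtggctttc

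The arrays shared 1 slide and 1 scan. Slide row 1 held 2 arrays of each group, with a median Cy5 brightness of 154.5 to 160 units, and slide row 2 the other 2 of each group, with 116 to 138 units, over a local background of 71 to 75 units. Markers of hepatocytes were far above the reference on every array, with a mean log2 ratio over 10 genes of 5.87 to 6.21 in control and 5.76 to 6.12 in PFOS. Over all tested genes and features, 606 (3.99%) differed between the diets (limma, Benjamini-Hochberg adjusted p under 0.05), 280 higher in PFOS (1.84%) and 326 lower (2.14%). Of all tested, 47.7% had a log2 change above 0. Centring on the median instead of loess left 239 calls, and scaling between arrays left 331.

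Most proteasome transcripts were slightly higher in PFOS liver. A log2 change above 0 was measured for 35 of the 41 genes, with a median of 0.18, a 1.13-fold difference, against a median of -0.01 for all tested. Psmc2, an ATPase of the regulatory particle, was the 1 gene called, where 1.84% of all tested were called higher. None was called lower, where 2.14% of all tested were, and 40 were not called. A single call among 41 genes is near the share of all tested. No member reached a change of 1 on the log2 scale, and 2 reached 0.5 (Psma6 and Psmd8), where 6.78% of all tested did in either direction. At an unadjusted p under 0.05, 17 members were higher, where 9.01% of all tested were, and 2 were lower, where 10.9% were. For 13 members every PFOS liver was above every control liver, against 5.91% of all tested, and for 1 member, Psmb8, every PFOS liver was below, against 6.89%. The proteasome genes share transcription factors and were measured in the same 8 livers, so these counts describe them and are not independent observations.

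**Figure D1:**
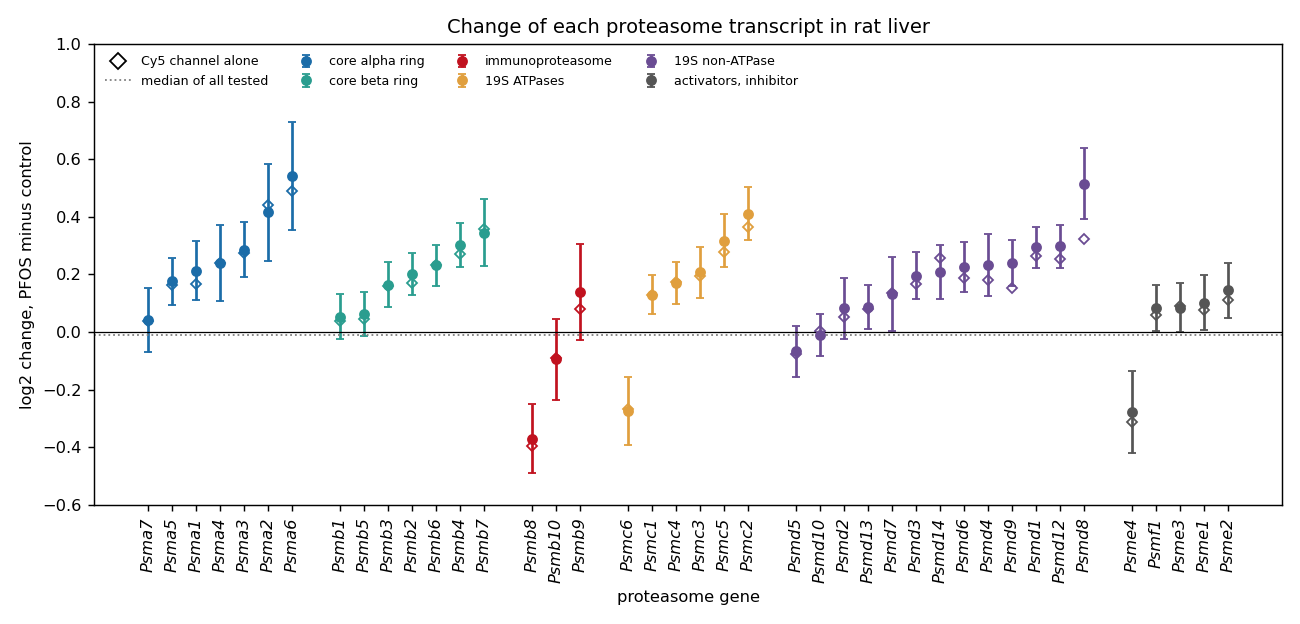
Log2 change (PFOS minus control, vertical axis) of the 41 proteasome genes by class, with filled points for the log2 ratio, bars for its standard error (n = 4 arrays a group) and open diamonds for the Cy5 channel alone. Of the 41 filled points 35 lie above 0, and Psmb8, Psmc6 and Psme4 are the lowest at -0.37, -0.27 and -0.28.

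**Figure D2:**
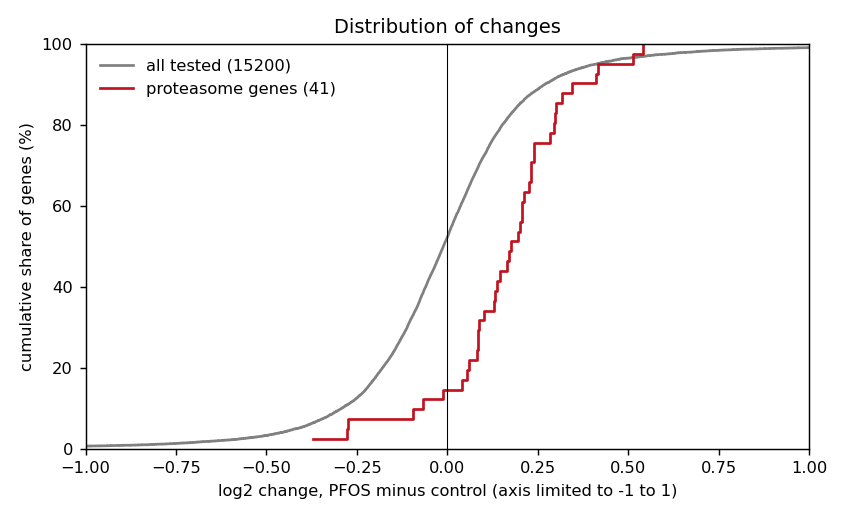
Cumulative share of genes (vertical axis, percent) by log2 change (horizontal axis, limited to -1 to 1) for the 41 proteasome genes and all 15200 tested genes and features. The proteasome curve lies to the right over most of its range, with a median of 0.18 against -0.01, and its upper end meets that of all tested.

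The shift was present in each PFOS liver. The median deviation of the 41 genes from the control mean was 0.26 in PFOS 1, 0.12 in PFOS 2, 0.17 in PFOS 3 and 0.16 in PFOS 4. In the control livers it was 0.06, 0.00, -0.06 and -0.01 for control 1 to 4. All PFOS values thus lay above all control values, with control 1 the nearest. For all tested genes the same deviation stayed between -0.03 and 0.01 on the 8 arrays. The median change of the members was 0.16 within slide row 1 and 0.16 within slide row 2, each from 2 livers of each group. Leaving out 1 array at a time gave 0.14 (without PFOS 1) to 0.21 (without PFOS 2).

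**Figure D3:**
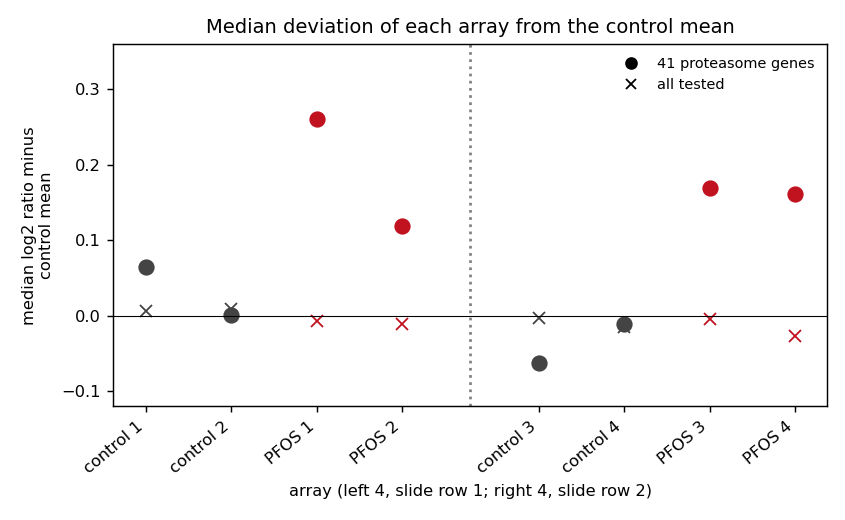
Median over the 41 proteasome genes of the log2 ratio minus the control mean (circles, vertical axis) on each array, with the same median over all tested genes (crosses), control in grey and PFOS in red. The 4 PFOS circles sit between 0.12 and 0.26, above the 4 control circles at -0.06 to 0.06, in both slide rows.

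The alpha ring, which gates the entrance to the core, had all 7 genes above 0 and none called, with a median log2 change of 0.24. Psma6 had the largest change of any member. Its log2 ratios were 0.35, 0.58, 0.36 and -0.27 in control 1 to 4 and 1.11, 0.83, 0.71 and 0.53 in PFOS 1 to 4. The groups overlapped, since PFOS 4 lay below control 2, and control 4 was the lowest. The log2 change was 0.54 (SE 0.19, 1.45-fold, limma adjusted p = 0.156). Psma2 (0.42, SE 0.17) had control livers that lay apart from one another, with 2 of them at -0.18 and -0.25 and 2 at 0.44 and 0.47, while the PFOS livers were between 0.50 and 0.58. Psma3 had a change of 0.28 (SE 0.10) and Psma7 of 0.04 (SE 0.11), the lowest of the ring.

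The 7 standard subunits of the beta ring were likewise all above 0, none called, with a median of 0.20. Psmb7, which cuts after basic residues, had the largest change. Its log2 ratios were 0.16, -0.16, -0.23 and -0.14 in control 1 to 4 and 0.17, 0.48, 0.11 and 0.25 in PFOS 1 to 4. Control 1 lay among the PFOS livers and the others below them, and the log2 change was 0.34 (SE 0.12, limma adjusted p = 0.14). Psmb4, a non-catalytic subunit, separated the groups, at 0.02 to 0.16 in control and 0.32 to 0.52 in PFOS, a log2 change of 0.30 (SE 0.08; adjusted p = 0.0666 in limma). Psmb6, which cuts after acidic residues, had a change of 0.23 (SE 0.07, limma adjusted p = 0.114), also without overlap. Psmb5, which cuts after hydrophobic residues, had a change of 0.06 (SE 0.08). The 3 catalytic subunits thus had changes from 0.06 to 0.34, and none passed the test.

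The immunoproteasome subunits had no common direction. Psmb8, the inducible counterpart of Psmb5, had the lowest log2 change of all members. Its log2 ratios were 0.34, 0.22, 0.04 and 0.59 in control 1 to 4 and 0.00033, 0.01, -0.17 and -0.13 in PFOS 1 to 4. All PFOS livers lay below all control livers, with control 3 next to them. The log2 change was -0.37 (SE 0.12, 1.29-fold lower, limma adjusted p = 0.129), which did not pass. In the Cy5 channel alone it was -0.40 (SE 0.12, limma adjusted p = 0.095), and there it passed without control 3. Psmb9, the counterpart of Psmb6, was at 0.79, 0.99, 0.40 and 0.68 in control and 1.14, 0.64, 0.56 and 1.07 in PFOS. The groups overlapped over most of their range, and the log2 change was 0.14 (SE 0.17). Psmb10, the counterpart of Psmb7, was at 0.95, 1.16, 0.87 and 0.94 in control and 1.22, 0.66, 0.63 and 1.03 in PFOS. Here PFOS 1 was the highest of all 8 livers and PFOS 2 and PFOS 3 the lowest, and the log2 change was -0.09 (SE 0.14).

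**Figure D4:**
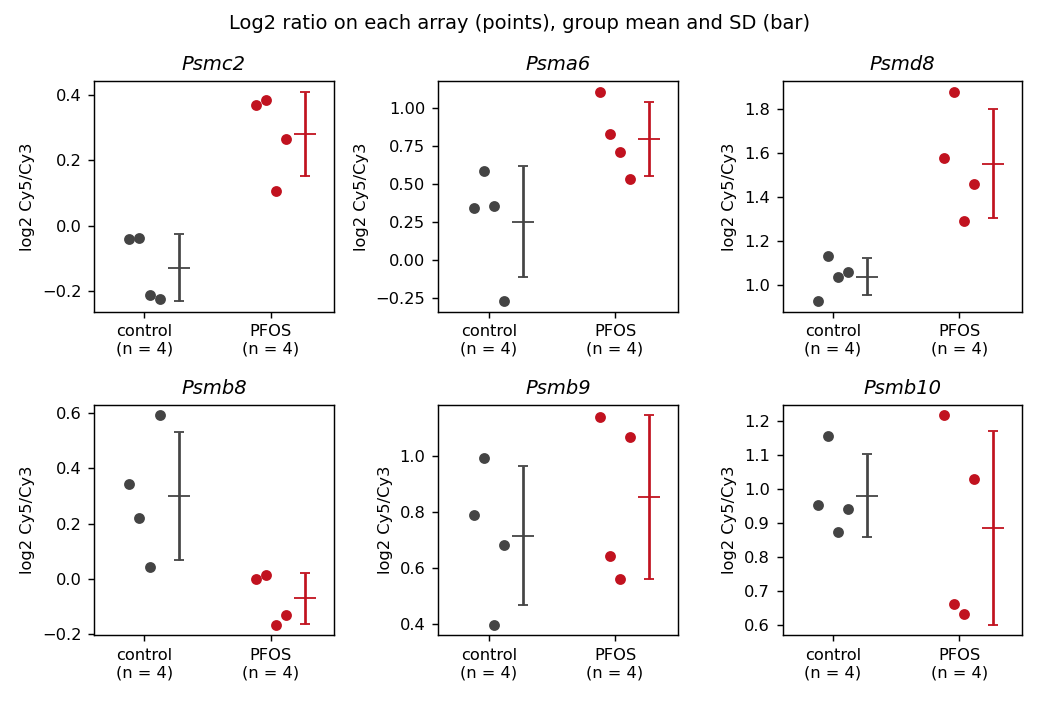
Log2 ratio of Cy5 over Cy3 (vertical axis) of 6 proteasome genes on each array (points), with the mean and SD of each group of 4 beside them. The groups are apart for Psmc2, Psmd8 and Psmb8, with Psmb8 lower in PFOS, and overlap for Psma6, Psmb9 and Psmb10.

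Each inducible subunit was set against the standard subunit whose place it takes, as the difference of their log2 ratios on each array. This asks whether the pair differed unequally between the diets. Psmb8 minus Psmb5 was -0.51 ± 0.17 (SD, n = 4) in control and -0.94 ± 0.08 (SD, n = 4) in PFOS. The difference of -0.43 gave an exact two-sided permutation p = 0.0286, the smallest that 70 assignments of the arrays allow, and 0.0857 after adjustment over the 3 pairs. Psmb10 minus Psmb7 differed by -0.44 (exact permutation p = 0.0571, adjusted 0.0857), and here the groups overlapped at PFOS 1. Psmb9 minus Psmb6 differed by -0.09 (exact permutation p = 0.629), with a sign that turned within slide row 2 (0.07) and without control 2 (0.0048). No pair passed after adjustment. With 3 pairs, 1 pair at the smallest possible p could not pass unless another pair reached it too.

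The 6 ATPases of the regulatory particle held the 1 called gene. The log2 ratios of Psmc2, a subunit of the ATPase ring, were -0.04, -0.04, -0.21 and -0.22 in control 1 to 4 and 0.37, 0.39, 0.11 and 0.27 in PFOS 1 to 4. All PFOS livers lay above all control livers, with PFOS 3 the nearest. Psmc2 rose 1.33-fold, by 0.41 on the log2 scale (SE 0.09; limma, adjusted p = 0.0432). In the Cy5 channel alone it rose by 0.36 (SE 0.07; limma, adjusted p = 0.0192), where it was also the 1 member called, against 4.69% of all tested called in either direction and 2.22% called higher. The call in the ratio rested close to the threshold: it was lost without any 1 array except PFOS 3, with adjusted p-values of 0.0702 to 0.112, and with processed signals, median centring, scaling between arrays, no filter on dim probes, slide column as a block or either slide row alone. In Cy5 alone it was lost without PFOS 1, control 3 or control 4, among others. The log2 change lay between 0.36, in the Cy5 channel alone, and 0.47, without PFOS 3, over all 26 settings, the reported one included. Psmc5 had a change of 0.32 (SE 0.09, limma adjusted p = 0.101), and Psmc1, Psmc3 and Psmc4 of 0.13, 0.21 and 0.17. Psmc6 was the 1 ATPase gene with a change below 0. Its log2 ratios were 1.72, 1.31, 1.30 and 1.67 in control 1 to 4 and 1.20, 1.24, 1.35 and 1.11 in PFOS 1 to 4. The groups overlapped, since PFOS 3 lay above control 2 and control 3, and the log2 change was -0.27 (SE 0.12, limma adjusted p = 0.232).

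Of the 13 tested Psmd genes, 11 were above 0 and 2 below, none called, with a median of 0.21. Psmd8, a lid subunit, had the largest change. Its log2 ratios were 0.93, 1.13, 1.04 and 1.06 in control 1 to 4 and 1.58, 1.88, 1.29 and 1.46 in PFOS 1 to 4. All PFOS livers were above all control livers, and the log2 change was 0.51 (SE 0.12, 1.43-fold, limma adjusted p = 0.0533). In the Cy5 channel alone it was 0.32 (SE 0.12, limma adjusted p = 0.159), and there the groups overlapped. PFOS 2, the highest liver in the ratio, lay on the log2 Cy5 scale below control 2 at 12.07, control 3 at 12.01 and control 4 at 12.06. The Cy3 reference signal of Psmd8 differed by -0.19 between the groups, the lowest of any member, and its part in the ratio was not tested. Psmd8 was called in 4 of the 25 other settings, such as without PFOS 3. Psmd1, the large scaffold of the base, was at 0.34 to 0.46 in control and 0.63 to 0.77 in PFOS, a difference of 0.29 on the log2 scale (SE 0.07; limma, adjusted p = 0.0563), and was called in 4 of the other settings. Psmd12, a lid subunit, was at -0.16 to -0.04 in control and 0.10 to 0.25 in PFOS (log2 change 0.30, SE 0.07; limma, adjusted p = 0.0605). Psmd14, the deubiquitinase of the lid, had a change of 0.21 (SE 0.09), and the ubiquitin receptor Psmd4 of 0.23 (SE 0.11).

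Psmd5, Psmd9 and Psmd10 are chaperones that help assemble the ATPase ring and are absent from the finished particle. Psmd5 had log2 ratios of 0.53, 0.28, 0.28 and 0.27 in control 1 to 4 and 0.32, 0.33, 0.15 and 0.28 in PFOS 1 to 4. The groups overlapped and control 1 stood apart, and the log2 change was -0.07 (SE 0.09). Psmd10 had a change of -0.01 (SE 0.07). Psmd9 had a change of 0.24 (SE 0.08, limma adjusted p = 0.14) with no overlap of the groups, but its second probe had a change of 0.01.

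The activators and the inhibitor had 4 of 5 genes above 0, a median of 0.08 and none called. Psme1 and Psme2, which form the interferon-inducible activator ring, had a change of 0.10 (SE 0.10) and 0.14 (SE 0.10). The log2 ratios of Psme2 were 0.67, 0.98, 0.73 and 0.95 in control 1 to 4 and 1.09, 0.94, 0.88 and 0.99 in PFOS 1 to 4, so that the groups overlapped. Psme3, the nuclear activator, and Psmf1, the inhibitor, both had a change of 0.08 (SE 0.08), and a second Psmf1 probe had -0.07. Psme4, a nuclear activator that binds the core alone, had log2 ratios of 1.27, 1.65, 1.68 and 1.60 in control 1 to 4 and 1.43, 0.90, 1.38 and 1.38 in PFOS 1 to 4. Control 1 lay among the PFOS livers and PFOS 2 far below the rest. The log2 change was -0.28 (SE 0.14, limma adjusted p = 0.31), and its second probe gave -0.02, so the size depends on the probe.

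The Cy5 channel alone gave the same picture, with 36 of 41 genes above 0 (47.6% of all tested) and a median of 0.16. The change in the Cy3 reference was between -0.19 and 0.03 for all members and none of them was called, where 0.0789% of all tested were. Several subunits have processed pseudogenes or near copies in the rat genome, among them Psma6, Psmb6, Psmb7, Psmc6, Psmd1, Psmd8 and Psme2, while the RefSeq table names none for Psmc2 or Psmb8. Whether probes of these genes also bind such transcripts was not tested, so their values are uncertain as to the gene.

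Among the promoters shown above, those of Psmd1, Psmb6 and Psmb5 held the antioxidant response element core, and these genes had log2 changes of 0.29, 0.23 and 0.06. Those of Psmc2 and Psmb8 did not hold it, and these genes had log2 changes of 0.41 and -0.37. The 7 members with the core had a median log2 change of 0.23, with 6 above 0 and Psme4 at -0.28. The 30 members with a promoter entry, a tested probe and no core had a median of 0.15, with 25 above 0. Members with and without a CCAAT box had medians of 0.18 and 0.16. The range was wide in both, and no test was made of these differences.

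Of the genes around the proteasome, calls were found among those that bring ubiquitin-marked proteins to it. Of 12 tested shuttle and Vcp cofactor genes, 2 rose, none fell and 10 were not called, with 11 above 0 and a median of 0.24. Of all tested, 1.84% were called higher and 47.7% were above 0, with a median of -0.01. Nsfl1c, a cofactor of the unfolding ATPase Vcp, was at 0.31, 0.31, 0.08 and 0.11 in control 1 to 4 and 0.84, 0.99, 0.48 and 0.72 in PFOS 1 to 4. Nsfl1c rose 1.47-fold, by 0.56 on the log2 scale (SE 0.12; limma, adjusted p = 0.0352), with all PFOS livers above all control livers. Zfand2a, a stress-induced protein that associates with the proteasome, was at -1.39, -1.29, -1.64 and -1.44 in control and -0.94, -0.93, -1.13 and -0.95 in PFOS, again with no overlap. Zfand2a rose 1.37-fold, by 0.45 on the log2 scale (SE 0.09; limma, adjusted p = 0.0331). Each call held in 14 of the 25 other settings, with log2 changes of 0.48 to 0.65 for Nsfl1c and 0.39 to 0.53 for Zfand2a. Both were lost with slide column as a block (limma adjusted p = 0.125 for Nsfl1c and 0.107 for Zfand2a), with median centring (0.287 and 0.282) and within either slide row alone. Nsfl1c was lost without any 1 array except PFOS 3, with adjusted p-values of 0.0600 to 0.0917 (limma). Zfand2a was lost without any 1 array except PFOS 3 or control 2, at 0.0650 to 0.0806 (limma), and after scaling between arrays, at 0.123. Ufd1, another Vcp cofactor, had a ratio change of 0.27 (SE 0.08; limma, adjusted p = 0.0956) and rose in the Cy5 channel alone, by 0.32 (limma, adjusted p = 0.0337). Vcp itself had a change of 0.12 (SE 0.10).

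Assembly factors and other associated subunits had 9 tested genes, none called, with 6 above 0 and a median of 0.15. Among all tested, 3.99% were called in either direction and 47.7% were above 0. The lowest p-values there were those of Txnl1 (0.31, SE 0.09), Psmg2 (0.25, SE 0.08) and Adrm1 (0.33, SE 0.12). Psmg2 is an assembly chaperone of the alpha ring and Adrm1 a ubiquitin receptor. The Adrm1 probe was dim, well above background on only 2 control and 3 PFOS arrays. Fbxo7 had the largest fall of the list, at -0.29 (SE 0.10, limma adjusted p = 0.169), with overlapping groups. In Cy5 alone Fbxo7 had a change of -0.35 without overlap. The maturation factor Pomp had a change of -0.10 (SE 0.08). Of 6 deubiquitinases none was called, and the proteasome-bound Usp14 had the lowest p (0.29, SE 0.09), followed by Uchl3 (0.16, SE 0.10) and Usp7 (-0.13, SE 0.10). The ubiquitin genes, activating enzymes and conjugating enzymes had 12 tested genes, none called, and a median of 0.01. The ubiquitin precursor Ubb had a change of 0.01 (SE 0.09). The conjugating enzyme Ube2n had a change of 0.45 (SE 0.12; limma, adjusted p = 0.0665), the activating enzyme Uba1 of 0.21 (SE 0.11) and the conjugating enzyme Ube2k of -0.14 (SE 0.09).

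Of 11 tested regulators tied to proteasome genes none was called, where 3.99% of all tested were called in either direction. All of them were transcription factors except Ngly1. Nfe2l1 was at 1.04 to 1.24 in control and 1.32 to 1.72 in PFOS, without overlap, a difference of 0.33 on the log2 scale (SE 0.10; limma, adjusted p = 0.118) and 0.37 (limma adjusted p = 0.059) in Cy5 alone. Its relative Nfe2l2 had a change of -0.14 (SE 0.14). Nfyb, a subunit of the factor that binds CCAAT boxes, was at 0.10 to 0.50 in control and -0.40 to 0.09 in PFOS, also without overlap. The log2 change of Nfyb was -0.39 (SE 0.14, limma adjusted p = 0.162). Irf1, the interferon-responsive activator of the immunoproteasome genes, had a change of -0.47 (SE 0.21, limma adjusted p = 0.253). Of 8 peptidases none was called, with Dpp3 at -0.39 (SE 0.11, limma adjusted p = 0.094), Thop1 at 0.24 (SE 0.09) and Prep at 0.21 (SE 0.09). The groups did not overlap for Dpp3, lower in PFOS, nor for 2 peptidases that were higher. Of all tested, the groups did not overlap for 5.91% with PFOS higher and 6.89% with PFOS lower.

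Genes that act with the immunoproteasome were not called in either direction, where 3.99% of all tested were. Of all tested, 47.7% were above 0, so most were below. Of 8 antigen-presentation genes, 5 were below 0 with a median of -0.18. Tap1 had a change of -0.12 (SE 0.20), B2m of 0.06 (SE 0.11), the disulphide isomerase Pdia3 of -0.31 (SE 0.11), the chaperone Canx of -0.30 (SE 0.14) and Tapbpl of -0.57 (SE 0.23). Of 21 tested interferon-stimulated genes other than proteasome subunits, 13 were above 0 and 8 below, with a median of 0.05. Besides Irf1, those of lowest p were Ifi44 (-0.31, SE 0.14) and Ifit3 (-0.61, SE 0.32). Subunits of the immunoproteasome are abundant in leukocytes and macrophages. Of 16 lymphocyte and other leukocyte markers 13 were tested and none called, with a mean log2 ratio of -0.50 to -0.34 in control and -0.69 to -0.30 in PFOS, and Cd3e, Cd2 and Ms4a1 had no tested probe. Of 12 Kupffer cell and macrophage markers 11 were tested and none called, with 10 below 0 and a mean log2 ratio of 3.72 to 4.48 in control and 3.45 to 4.37 in PFOS. Of 9 endothelial markers 5 were tested, all below 0 and none called, with a median of -0.46. The part of these cells in the Psmb8 values was not tested.

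**Figure D5:**
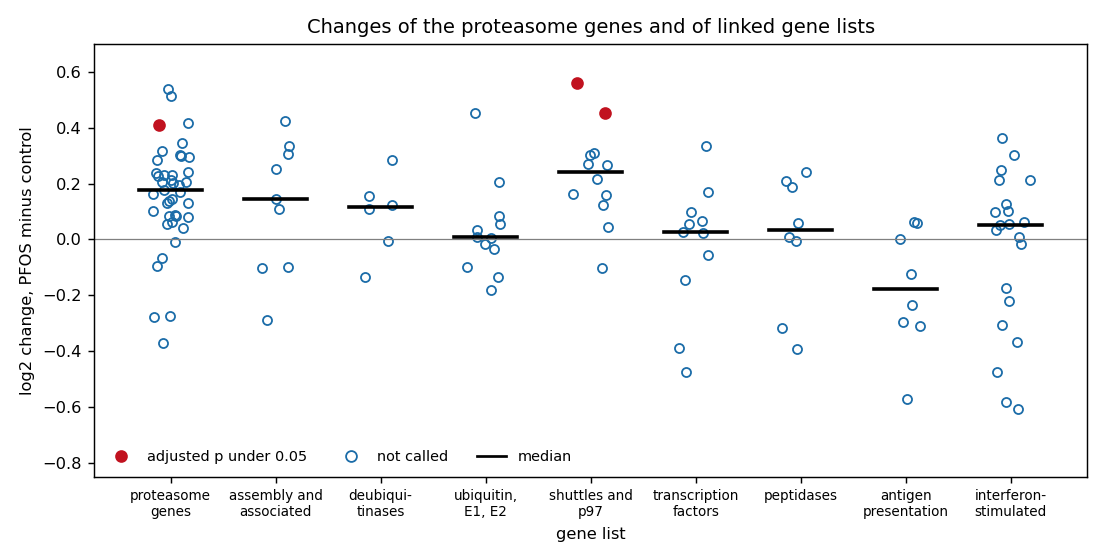
Log2 change (PFOS minus control, vertical axis) of the 41 proteasome genes and of the genes of 8 linked lists (horizontal axis), with the median of each list as a bar and called genes filled in red. Psmc2, Nsfl1c and Zfand2a are the called genes, and the list of shuttles and Vcp cofactors has a median of 0.24, against 0.01 for the ubiquitin list.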

How the data were processed

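The authors deposited scanner files with spot intensity values on a linear scale, which Agilent's extraction software had produced (release 10.7.3.1, per the file headers), and a table of log2 ratios whose method is not given in the sources used here. The deposited log2 values correlated with loess-normalized Cy5 over Cy3 ratios without background subtraction at 0.995 to 0.997, which gives their scale and direction. Their column medians were -0.061 to -0.048, and their centring is unknown. Per the labels, Cy5 held liver RNA and Cy3 the reference on every array, with no dye swap. The files held median signals, which were corrected with normexp (offset 50) and normalized within arrays by loess with control spots at weight 0. Outlier spots were left out (733 to 991 per array) and spots of a probe averaged.

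Probes were named through the GRCr8 table of RefSeq. The array was designed on an older build, so no probe coordinates are given. A probe was kept where 4 or more of its 8 Cy5 values were well above background, the brightest stood for its gene, and 4 features with a missing array were dropped. Groups were compared with limma 3.58.1 in R 4.3.3 (with package data.table, version 1.17.8, and jsonlite 2.0.0). A fold is 2 to the power of the log2 change. The Cy5 channel alone was quantile normalized. The limma fit was tested on simulated data in which genes varied independently, and the other steps were not tested in this way.

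The members and lists were chosen with earlier results of these data known. Described with every value were members called in the ratio or in Cy5, the immunoproteasome subunits, and the largest rise and largest fall of each class. Other members with values were chosen after their values were seen, as were Vcp, Pomp, Fbxo7, Ubb, Nfe2l2, Tap1 and B2m. Of each linked list the called genes and the 3 of smallest p were named by rule. The labels number the animals, but no number is shared between groups.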

Additional observations from a re-analysis of the deposited data

Results flagged for a closer look

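In 4 of the 82 groups of 4 arrays formed by the 41 members, 1 array lay apart from the other 3 by more than Dixon's 95% critical value, where chance flags about 1 in 20 groups. The log2 ratio of Psma5 was 0.18 in PFOS 2, below 0.29 to 0.31 in the other PFOS livers. Psmd3 was at 0.21 in control 1, above 0.05 to 0.07 in the other controls. Psmd5 was at 0.53 in control 1, above 0.27 to 0.28 in the other controls. Psme4 was at 0.90 in PFOS 2, below 1.38 to 1.43 in the other PFOS livers. None of these 4 genes was called.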

How the results depend on the processing

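The median change of the members stayed above 0 and within 1 SD between arrays (0.05) of its value in all 25 other settings, at 0.14 to 0.22. The number of members called moved between 0 and 3. In the ratio it was 0 with median centring, no filter on dim probes, slide column as a block or either slide row alone, 2 with processed signals (Psmd1 and Psmb4) or array weights (Psmd1 and Psmc2), 3 with both stricter filters (Psmc2, Psmd1 and Psmd8), and 0 to 2 with 1 array left out. In Cy5 alone it was 0 with median centring, slide column as a block or either row alone, 2 (Psmc2 and Psmd1) with no filter, the mean of probes, trend and robust options or array weights, and 0 to 2 with 1 array left out (0 without PFOS 1 or control 4; Psmb7 beside Psmc2 without control 1; Psmd8 beside Psmc2 without PFOS 2; Psmb8, lower, as the 1 call without control 3). Psmc2 was called in 11 of the 25 other settings, with adjusted p-values of 0.0192 to 0.397 over all of them. All genes called were 239 with median centring, 331 after scaling between arrays, 268 with slide column as a block, 93 and 32 within slide rows 1 and 2, and 350 to 519 with 1 array left out. Psmb9 minus Psmb6 turned sign within slide row 2 (0.070) and was -0.19 to 0.0048 with 1 array left out. The other 2 pairs kept their sign. The cause of these differences between settings was not tested. No paired analysis was possible because the groups share no replicate number in the labels. The 4 arrays per group limit the precision, with a median SE of 0.09 for the members.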
